A study of Mus musculus with 6 samples.

Results

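The major histocompatibility complex (MHC) genes of the mouse and the genes that load peptides onto their products were described in hippocampal RNA taken 24 h after traumatic brain injury (TBI). The members were the protein-coding genes whose symbol starts with H2-, the mouse name of the complex, together with B2m, Cd74, Ciita, Nlrc5, Tap1, Tap2, Tapbp, Tapbpl, Psmb8, Psmb9, Psmb10, Erap1, Ctss and Cd1d1. They numbered 48 of the 52550 genes listed, of which 21819 were protein-coding by the GENCODE vM21 annotation. By role, 26 were class I chains and B2m, 9 served class I peptide processing, 12 belonged to class II, and H2-Ke6 carried the prefix without being an MHC chain. A further 11 H2- genes annotated as pseudogenes, such as H2-Q5 and H2-T10, were outside the rule.

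The 6 libraries came from 3 Sham and 3 TBI mice, named Sham1 to Sham3 and TBI1 to TBI3, with 1 mouse per library. All were male C57BL / 6 mice of 8 to 10 weeks. The TBI mice received a moderate controlled cortical impact, in which a piston strikes the exposed cortex, through a craniotomy over the right parietal bone. The Sham mice had the same anaesthesia with ketamine and xylazine and the same craniotomy without the impact, so both groups carried an opened skull, and no unoperated mouse was among them. The methods describe exposing the hippocampus on both sides, and the study describes its tissue as the entire hippocampus.

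Class I molecules consist of a heavy chain paired with beta-2-microglobulin, and almost all nucleated cells use them to show fragments of their own proteins to CD8 T cells. The fragments are cut by the proteasome, carried into the endoplasmic reticulum by the TAP transporter and trimmed there before loading. Class II molecules consist of an alpha and a beta chain guided by the invariant chain Cd74, and professional antigen-presenting cells use them to show material taken up from outside to CD4 T cells. In the healthy brain neurons make little class I, and class II is found chiefly on macrophages at the borders and around vessels, while interferons raise both. Nlrc5 is the coactivator of class I genes and Ciita that of class II genes.

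The upstream sequences of a few members show the elements through which these controls are known to act, and they are printed because the class I and class II genes are described apart. Of the 48 members, 39 had an entry in the RefSeq promoter table, which spans 250 bases before and 50 bases after a start site. Positions are counted from the start site and the build is GRCm38.p6. Both strands were searched for the Y box core ATTGG (37.4% of 32851 promoters held it), the X box core AGNNACNGNTG (4.61%), GAANNGAAA (7.52%) and GAAANNGAAA (3.44%) as cores of the interferon-stimulated response element, and the kB palindrome GGGGANTCCCC of the class I enhancer (0.0487%, or 16 promoters). GAANNGAAA and GAAANNGAAA can cover the same bases. Capitals mark these matches in the following upstream stretches, which hold no annotated exon.
B2m, chr2:122147486-122147685, plus strand: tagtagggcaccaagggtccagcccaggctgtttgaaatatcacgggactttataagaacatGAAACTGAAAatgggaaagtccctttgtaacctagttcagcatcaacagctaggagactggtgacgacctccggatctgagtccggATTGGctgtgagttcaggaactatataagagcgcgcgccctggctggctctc
H2-K1, chr17:34000348-34000547, minus strand: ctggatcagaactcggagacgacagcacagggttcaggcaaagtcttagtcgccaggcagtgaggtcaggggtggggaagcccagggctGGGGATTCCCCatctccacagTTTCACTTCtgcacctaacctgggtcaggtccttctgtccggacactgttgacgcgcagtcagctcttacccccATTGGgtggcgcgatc
H2-Eb1, chr17:34305721-34305866, plus strand: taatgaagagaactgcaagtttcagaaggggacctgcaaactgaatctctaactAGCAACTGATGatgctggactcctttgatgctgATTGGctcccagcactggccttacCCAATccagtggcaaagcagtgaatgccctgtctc
H2-Aa, chr17:34287824-34288023, minus strand: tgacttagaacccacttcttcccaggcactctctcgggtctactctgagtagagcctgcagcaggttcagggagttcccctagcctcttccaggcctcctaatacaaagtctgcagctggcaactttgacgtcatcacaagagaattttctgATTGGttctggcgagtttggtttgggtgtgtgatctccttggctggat

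The kB palindrome was matched upstream of H2-D1, H2-K1 and H2-Q6, and GAANNGAAA lay beside it on the opposite strand. The same window of 30 bases, ending in that match, is given for the class I genes that passed the filter on low counts and held GAANNGAAA, so that the letters can be compared, with matches again in capitals.
H2-D1, chr17:35262923-35262952, plus strand: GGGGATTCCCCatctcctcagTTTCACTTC
H2-K1, chr17:34000429-34000458, minus strand: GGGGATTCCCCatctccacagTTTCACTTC
H2-Q6, chr17:35424677-35424706, plus strand: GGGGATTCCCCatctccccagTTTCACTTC
H2-Q4, chr17:35379443-35379472, plus strand: ggggatttcccatctccccagTTTCACTTC
H2-Q7, chr17:35439021-35439050, plus strand: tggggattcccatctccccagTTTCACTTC
H2-M3, chr17:37270112-37270141, plus strand: attcccccatttcctctgaggTTTCACTTC
B2m, H2-T22, H2-T23 and Erap1 held GAAANNGAAA instead, and Ctss held both cores. The X box core was found in 4 of 9 class II genes (H2-DMb1, H2-Eb1, H2-Eb2 and H2-Oa), in 3 of 6 processing genes (Psmb9, Psmb10 and Tap1) and in 4 of 23 class I genes, all of the H2-M10 group. The Y box core was found in 8 of 9 class II genes and 20 of 23 class I genes. These matches describe letters in these windows and no binding was measured.

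The deposited values summed to between 31630936 and 41771872 per library and are estimated counts, not reads. They were scaled to a common library total as CPM, and the edgeR quasi-likelihood test was run over 18795 genes. A call needed an unadjusted p under 0.05, a Benjamini-Hochberg adjusted p under 0.1 and at least a 1.5-fold difference in either direction. The libraries Sham2 and TBI1 stood apart in marker genes outside the MHC. In Sham2 all 7 reactive astrocyte markers were at their highest of the 6 libraries, with Gfap, the astrocyte intermediate filament, at 4055 CPM against 623 CPM in Sham1 and 632 CPM in Sham3, and 10 of 12 interferon response genes were highest there. In TBI1 all 7 striatal markers were highest, with Drd2, a dopamine receptor, at 185 CPM against 2.30 to 5.23 CPM elsewhere, and the 8 hippocampal neuron markers stood at a mean of -1.47 on the log2 scale relative to the Sham mean. The same mean was -0.34 in TBI2 and -0.83 in TBI3 and ran from -0.16 to 0.24 in Sham, and 3 of the 8 markers (Prox1, Grik4 and Fibcd1) were lower in TBI without overlap, against 5.45% of all genes. Among them Neurod6 was at 29.3 CPM in TBI1 against 84.7 to 252 CPM elsewhere, while Rbfox3 and Wfs1 were highest in TBI1. The choroid plexus gene Ttr was at 1896 to 2199 CPM in Sham1, Sham3 and TBI2 and at 26.3 to 225 CPM in the others. Fold changes of the members named by library are therefore given with and without Sham2, and the main counts also without both libraries.

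In the edgeR test 0 of the 35 members tested were called, where 0.0% of all genes tested were called. Of the 48 members 35 passed the filter on low counts, namely 14 of 26 class I genes, 9 of 9 processing genes, 11 of 12 class II genes and H2-Ke6. At an unadjusted p under 0.05 there were 2 members higher in TBI (2.16% of all genes) and 0 lower (2.13%). DESeq2 called 46 of 28118 genes (0.164%) and 0 members. The 3 TBI libraries lay above the 3 Sham libraries in 4 members, B2m, H2-D1, H2-T23 and H2-Oa (4.77% of all genes), and below them in 0 (5.45%). A log2 fold change above 0 was found for 21 of 35 members against 51.4% of all genes.

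Per length of merged exons, which can understate a gene with long alternative transcripts, the members spanned more than 3 orders of magnitude. B2m, the light chain shared by all class I molecules, had a mean of 111 CPM per kb in Sham and 136 CPM per kb in TBI. Ctss, the lysosomal protease that trims the invariant chain and is abundant in microglia, followed with 68.3 CPM per kb in Sham and 84.0 CPM per kb in TBI. The classical heavy chains H2-D1 and H2-K1 came next among the class I genes, with 18.8 and 11.8 CPM per kb in Sham. The class II chain H2-Ab1 stood at 1.58 CPM per kb and its partner H2-Aa at 0.685 CPM per kb in Sham, below both H2-D1 and H2-K1. Ciita was the lowest tested member, with 0.0634 CPM per kb in Sham and 0.0325 CPM per kb in TBI.

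**Figure D1:**
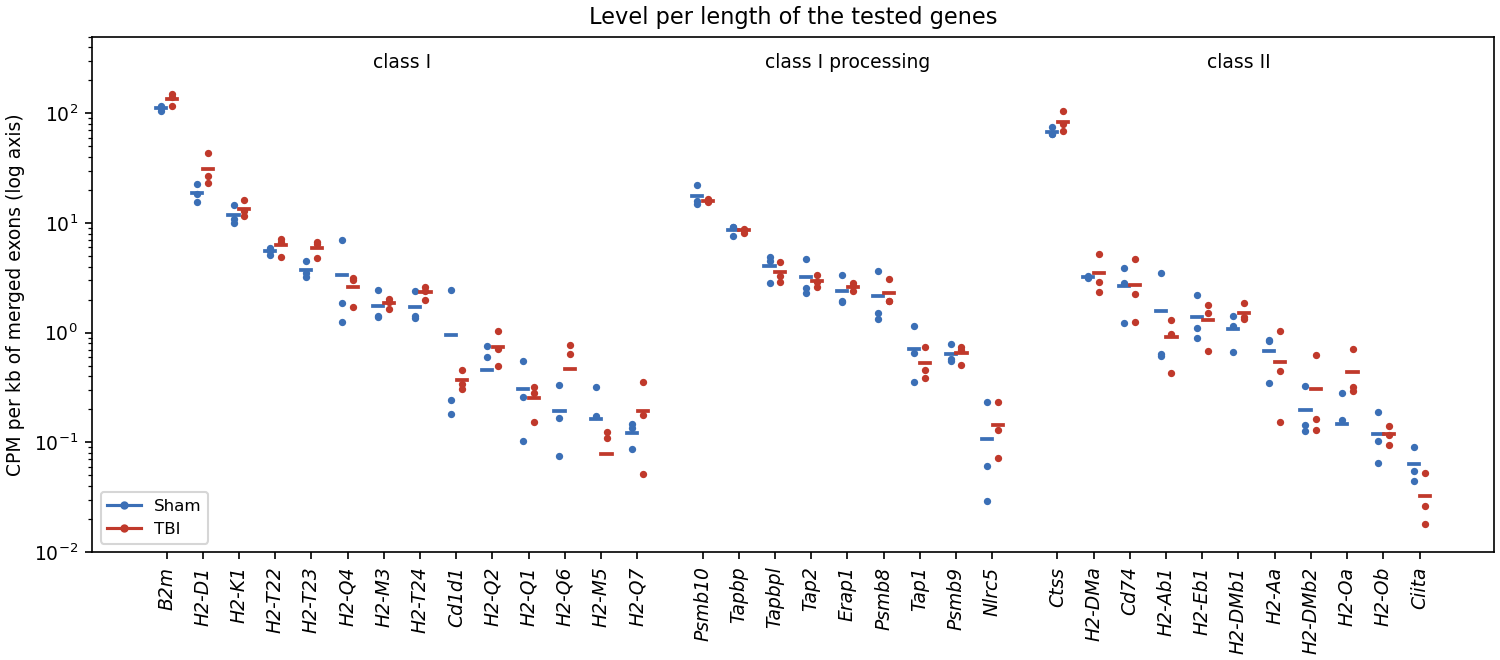
Level of the 34 tested MHC genes with a class in CPM per kb of merged exons (log axis), with 1 point per library, bars for group means, Sham in blue and TBI in red, and values of 0 not drawn. B2m (111 in Sham) and Ctss (68.3 in Sham) stood at the top and Ciita (0.0634 in Sham) at the bottom, and the groups overlap in most genes.

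Among the class I genes, the heavy chains H2-D1 and H2-T23 were those with an unadjusted p under 0.05, and neither was called. H2-D1 (chr17:35262730-35267499, plus strand) was at 40.0, 58.6 and 47.2 CPM in Sham1 to Sham3 and at 59.4, 68.7 and 111 CPM in TBI1 to TBI3. The TBI libraries were all above the Sham libraries, but TBI1 exceeded Sham2 by only a small step. The log2 fold change was 0.72 with a standard error of 0.27 (adjusted p = 0.982 by edgeR). It was 0.87 without Sham2, 1.05 without Sham2 and TBI1, and 0.39 without TBI3, the library with the highest level.

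H2-T23 encodes the Qa-1 heavy chain, which presents peptides from other class I leaders to receptors of NK cells. Its level was 9.31, 12.99 and 10.1 CPM in Sham1 to Sham3 and 18.5, 19.6 and 13.8 CPM in TBI1 to TBI3. Here too the groups did not overlap, and TBI3, highest for H2-D1, was the lowest of the TBI libraries. The log2 fold change of H2-T23 was 0.68 with a standard error of 0.22 (adjusted p = 0.982 by edgeR), and without Sham2 it was 0.84.

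B2m was at 100.3, 90.1 and 96.2 CPM in the Sham libraries and at 101, 121 and 128 CPM in the TBI libraries. The separation rested on less than 1 CPM between Sham1 and TBI1, and the log2 fold change was 0.29 with a standard error of 0.13 (adjusted p = 0.982 by edgeR). H2-K1, the other classical heavy chain, was at 29.6, 42.7 and 31.9 CPM in Sham and 33.8, 47.7 and 37.8 CPM in TBI, so that Sham2 lay inside the TBI range. Its log2 fold change was 0.19 with a standard error of 0.20. With 1 library left out it ran from 0.038 without TBI2 to 0.37 without Sham2. Per length, the ratio of H2-D1 to H2-K1 was 1.54, 1.56 and 1.69 in the Sham libraries and 2.003, 1.64 and 3.35 in the TBI libraries, which overlapped because of TBI2.

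Summed over the 24 H2- heavy chains of class I, the level was 110, 159 and 126 CPM in Sham1 to Sham3 and 143, 180 and 208 CPM in TBI1 to TBI3. The Sham mean was 131 ± 24.8 CPM and the TBI mean 177 ± 32.6 CPM (SD of 3 libraries each), and Sham2 lay above TBI1. The 7 endothelial markers summed to 211, 189 and 283 CPM in Sham1 to Sham3 and 253, 278 and 299 CPM in TBI1 to TBI3, with 5 of 7 log2 fold changes above 0, and their part in the class I values was not tested. TBI3 was the highest library in 5 of the 14 class I genes tested, against 19.8% of all genes. The part of this sum outside H2-K1 and H2-D1 was 40.5 to 57.3 CPM in Sham and 50.1 to 63.9 CPM in TBI, so most of the heavy chain signal came from these 2 genes. H2-T22, a relative of H2-T23, was at 17.6 to 20.2 CPM in Sham and 16.6 to 24.6 CPM in TBI. H2-M3, which presents bacterial formyl peptides, was at 2.0, 2.04 and 3.54 CPM in Sham and 2.74, 2.37 and 2.92 CPM in TBI.

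H2-Q4 and Cd1d1, a lipid-presenting relative of class I, were at their highest in a single Sham library. Cd1d1 was at 0.469, 6.28 and 0.625 CPM in Sham1 to Sham3 and at 1.18, 0.790 and 0.871 CPM in TBI1 to TBI3. Sham2 was thus 7.99 times the mean of the other 5 libraries, and the log2 fold change of -1.37 turned to 0.79 without it. H2-Q4 was at 3.28, 18.2 and 4.82 CPM in Sham and 4.48, 8.22 and 7.84 CPM in TBI, and its log2 fold change of -0.36 turned to 0.76 without Sham2. Of the remaining tested class I genes, H2-T24 was at 2.99 to 5.72 CPM over the 6 libraries, and H2-Q1, H2-Q2, H2-Q6, H2-Q7 and H2-M5 lay at or below 2.25 CPM in every library. H2-M1, H2-M2, H2-M9, H2-M10.1 to H2-M10.6, H2-M11, H2-T3 and H2-Q10 did not pass the filter, and within them only H2-Q10 and H2-M10.2 had any count, both in Sham2 alone.

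Class I genes share sequence, which bears on how far their counts can be told apart. Of the 75-base stretches in the transcripts of H2-D1, 6.33% also occurred in transcripts of another gene on either strand, and for H2-K1 this was 1.12%. With stretches of 150 bases the shares fell to 1.54% for H2-D1 and 0% for H2-K1. With 75 bases the share was 13.1% for H2-T23, 18.7% for Cd1d1 (with Cd1d2), 22.6% for H2-Q7 and 24.6% for H2-T22. It was 21.7% for H2-Q4, of which the largest part, 13.4%, was shared with the antisense gene Gm11131 and not with a class I gene. With 150 bases it was 0.83% for H2-T23, 6.12% for Cd1d1, 8.31% for H2-Q7, 0.77% for H2-T22 and 8.39% for H2-Q4. B2m, H2-M3, H2-Aa, H2-Ab1, H2-Eb1, Cd74 and Ctss shared none. The longest run that the coding sequences of H2-D1 (chr17:35265911-35266001, in 1 exon) and H2-K1 (chr17:33997343-33997433) have in common was 91 bases, shown because reads inside it cannot be assigned by sequence: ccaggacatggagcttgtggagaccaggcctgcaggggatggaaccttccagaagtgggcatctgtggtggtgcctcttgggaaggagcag. H2-T22 also overlapped A930015D03Rik on the other strand over 29.4% of its exon bases and H2-Q4 overlapped Gm11131 over 19.1%, and since the strandedness of the counting was not stated, their values are uncertain.

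**Figure D2:**
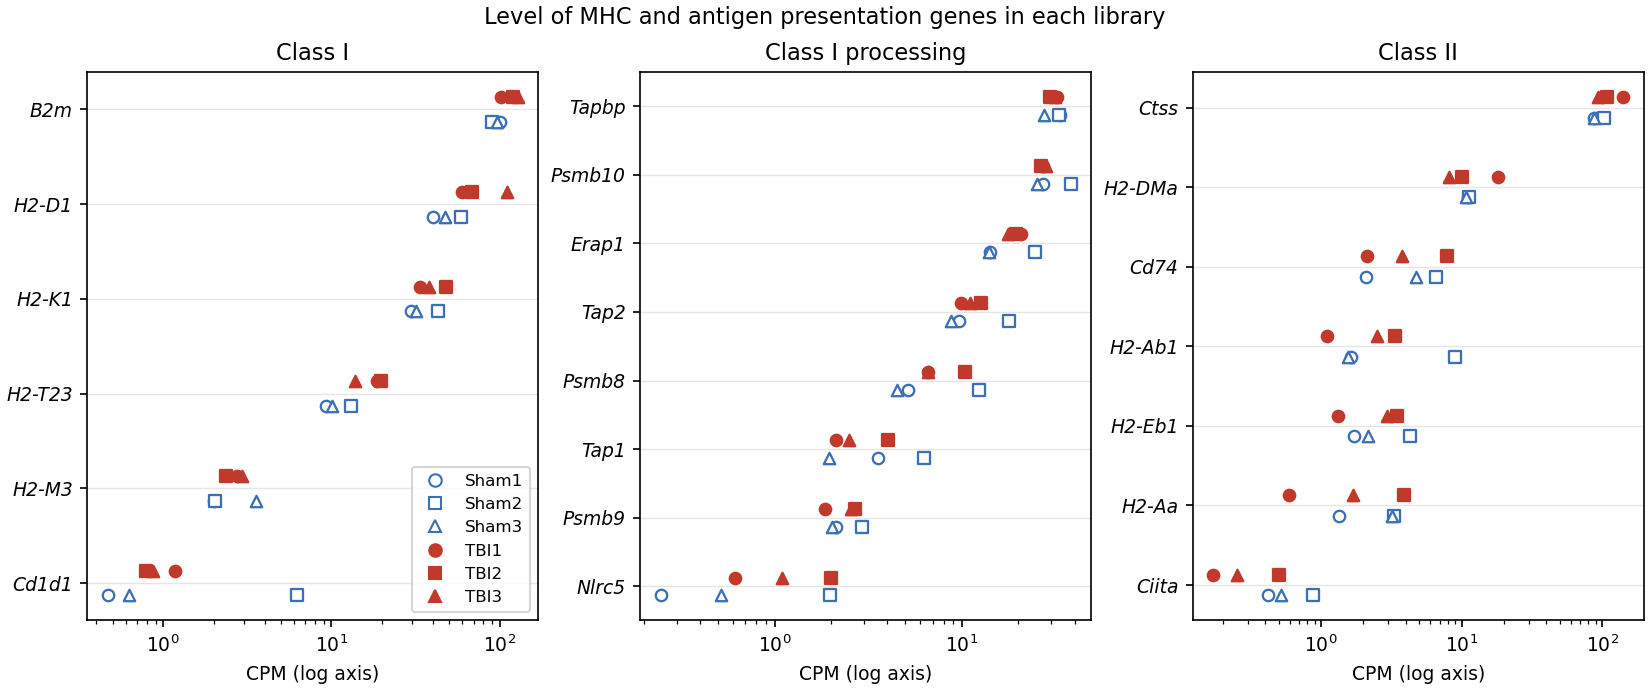
CPM (log axis) of 21 MHC genes in each of the 6 libraries, in 3 panels by role, with open blue symbols for Sham and filled red symbols for TBI. H2-D1 and H2-T23 are separated by group, while Sham2 (open square) is at the right for most processing genes and for Cd1d1 (6.28 CPM against 0.469 and 0.625 CPM in the other Sham libraries).

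In the 9 genes of class I peptide processing, the groups overlapped in every case and Sham2 was the highest library in 6. Sham2 was highest in 23.7% of all genes tested and in 11 of the 35 members. Psmb8, Psmb9 and Psmb10 replace the catalytic subunits of the ordinary proteasome to make the immunoproteasome. Psmb8 was at 5.14, 12.3 and 4.48 CPM in Sham1 to Sham3 and 6.61, 10.4 and 6.57 CPM in TBI1 to TBI3, a log2 fold change of 0.10 with a standard error of 0.44, which was 0.71 without Sham2. Psmb9 was at 2.12, 2.92 and 2.03 CPM in Sham and 1.86, 2.69 and 2.56 CPM in TBI, and Psmb10 was at 27.1, 38.0 and 25.2 CPM in Sham and 27.0, 26.6 and 28.0 CPM in TBI. Apart from Sham2, the Psmb10 libraries were nearly level.

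The immunoproteasome subunits were set against the ordinary subunits they replace. Per length, Psmb8 came to 0.794%, 1.995% and 0.747% of Psmb5 in Sham1 to Sham3 and to 1.38%, 1.77% and 1.15% of it in TBI1 to TBI3. Psmb9 came to 0.687% to 1.03% of Psmb6 over all libraries, and Psmb10 to 27.5% to 37.4% of Psmb7. By this measure the ordinary subunits prevailed in all 6 libraries, and for each pair the groups overlapped. The lengths are those of merged exons, 3660 bases for Psmb9 and 3381 bases for Psmb8, which can understate a gene with long alternative transcripts. Psmb8 also overlapped the antisense gene Gm20496 over 14.7% of its exon bases.

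Tap1 and Tap2 form the peptide transporter, and Tapbp bridges it to the empty heavy chain. Tap1 was at 3.56, 6.28 and 1.95 CPM in Sham and 2.13, 4.05 and 2.501 CPM in TBI, and Tap2 at 9.63, 17.9 and 8.75 CPM in Sham and 9.90, 12.6 and 11.1 CPM in TBI. Both were highest in Sham2, and their log2 fold changes of -0.44 and -0.11 became 0.07 and 0.28 without it. Tapbp differed little between libraries, at 33.4, 33.1 and 27.6 CPM in Sham and 32.2, 29.5 and 31.5 CPM in TBI, with a log2 fold change of -0.01 and a standard error of 0.13, although the antisense gene Gm19412 overlapped 24.9% of its exon bases. Tap2 overlapped Gm15821 over 14.1% on the other strand. Tapbpl, which edits peptides in a similar way, was at 6.74 to 11.5 CPM. Tap1 and Psmb9 lie back to back on chromosome 17 and share 212 exon bases on opposite strands.

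Erap1, the peptidase that trims peptides in the endoplasmic reticulum, was at 14.2, 24.7 and 13.9 CPM in Sham1 to Sham3 and 20.6, 19.5 and 17.6 CPM in TBI1 to TBI3. All TBI libraries were above Sham1 and Sham3 and below Sham2, and the log2 fold change of 0.13 was 0.45 without Sham2 (adjusted p = 0.997 by edgeR). Erap1 overlaps the protein-coding gene Cast on the other strand over 11.5% of its exon bases, which makes its value uncertain too. The class I coactivator Nlrc5 was at 0.247, 1.97 and 0.521 CPM in Sham and 0.612, 1.99 and 1.096 CPM in TBI. Its log2 fold change of 0.43 (standard error 0.83) was 1.67 without Sham2, with a standard error of 0.72.

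The groups overlapped in the classical class II chains and in Cd74, all below 10 CPM in every library. Cd74, the invariant chain, was at 2.07, 6.53 and 4.77 CPM in Sham1 to Sham3 and 2.11, 7.84 and 3.79 CPM in TBI1 to TBI3, a log2 fold change of 0.04 with a standard error of 0.59. The alpha chain gene H2-Aa was at 1.33, 3.29 and 3.18 CPM in Sham and 0.588, 3.92 and 1.69 CPM in TBI. Its values in TBI ran from the lowest to the highest of all 6 libraries. H2-Ab1, the matching beta chain gene, was at 1.63, 8.97 and 1.56 CPM in Sham and 1.102, 3.38 and 2.501 CPM in TBI, and H2-Eb1, the beta chain gene of the other isotype, was at 1.73, 4.29 and 2.16 CPM in Sham and 1.32, 3.44 and 2.92 CPM in TBI. Sham2 was highest for both beta chains, and the log2 fold changes of -0.80 and -0.09 turned to 0.54 and 0.39 without it.

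The classical class II genes H2-Aa, H2-Ab1 and H2-Eb1 summed with Cd74 to 6.77, 23.1 and 11.7 CPM in Sham and 5.12, 18.6 and 10.9 CPM in TBI. Sham2 and TBI2 were the high libraries and Sham1 and TBI1 the low ones. The 7 markers of border and perivascular macrophages summed to 15.2, 30.9 and 21.9 CPM in Sham and 22.4, 30.2 and 22.4 CPM in TBI, with Sham2 and TBI2 again the highest. The monocyte, neutrophil and interferon response lists were also highest in Sham2 and TBI2 in sum, at 97.8 and 52.5 CPM, 15.8 and 7.87 CPM, and 194 and 121 CPM. The 7 dendritic cell markers instead summed to 46.5 CPM in TBI3 and to 10.96 to 22.7 CPM elsewhere. Of the 5 tested, 2 were highest in Sham2, 2 in TBI3 and 1 in TBI2, and their mean log2 level was highest in Sham2. Markers of B cells stayed at or below 1.55 CPM in sum, and Cd3e, Cd3d, Cd3g, Cd8a and Nkg7 of T and NK cells lay at or below 0.339 CPM in every library. Cd4 was at 51.9 CPM in TBI1 and at most 0.729 CPM elsewhere. The part of any cell type in the class II values was not tested, and in bulk tissue fewer cells of a type and less RNA per cell cannot be told apart.

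Ciita, the class II coactivator, was at 0.420, 0.872 and 0.521 CPM in Sham1 to Sham3 and 0.171, 0.506 and 0.253 CPM in TBI1 to TBI3. The groups overlapped through TBI2 and Sham1, and the log2 fold change was -0.97 with a standard error of 0.61 (adjusted p = 0.982 by edgeR) from at most 35 counts per library. For Ciita it was -0.61 without Sham2 and -1.50 without TBI2. H2-DMa and its partners exchange peptides on class II molecules, and H2-Oa and H2-Ob hold that exchange back. H2-DMa was at 11.1, 11.4 and 10.8 CPM in Sham and 18.1, 10.05 and 8.09 CPM in TBI, with TBI1 apart from the rest. H2-Oa was at 0.395, 0.224 and 0 CPM in Sham and 1.004, 0.411 and 0.450 CPM in TBI, so the groups did not overlap. The nearest libraries, TBI2 and Sham1, held 13 and 16 counts before scaling to the library totals. H2-Oa overlaps the antisense gene BC051537 over 22.8% of its exon bases, and its log2 fold change was 1.57 with a standard error of 1.08 (adjusted p = 0.982 by edgeR). With 1 library left out, that of H2-Oa was 0.997 without Sham3, 1.04 without TBI1, 1.63 without Sham2 and 2.45 without Sham1.

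Ctss was at 87.6, 103 and 87.9 CPM in Sham1 to Sham3 and 141, 108 and 92.9 CPM in TBI1 to TBI3, and its log2 fold change was 0.30 with a standard error of 0.18 (adjusted p = 0.982 by edgeR). TBI1 was the highest library for 4 of the 35 members, Ctss, H2-DMa, H2-DMb2 and H2-Oa, and for 19.7% of all genes. Without TBI1 the log2 fold change was 0.12 for Ctss and -0.29 for H2-DMa. In the same library 9 of the 10 microglial markers were at their highest, and these summed to 883 CPM in TBI1 against 442 to 603 CPM in the other libraries. Their part in these values was not tested. H2-DMb1 was at 1.11 to 2.39 CPM in Sham and 2.22 to 3.13 CPM in TBI, H2-DMb2 at 0.222 to 1.102 CPM and H2-Ob at 0.346 to 1.02 CPM over the 6 libraries. H2-Eb2 had 4 counts in TBI3 and 0 elsewhere.

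**Figure D3:**
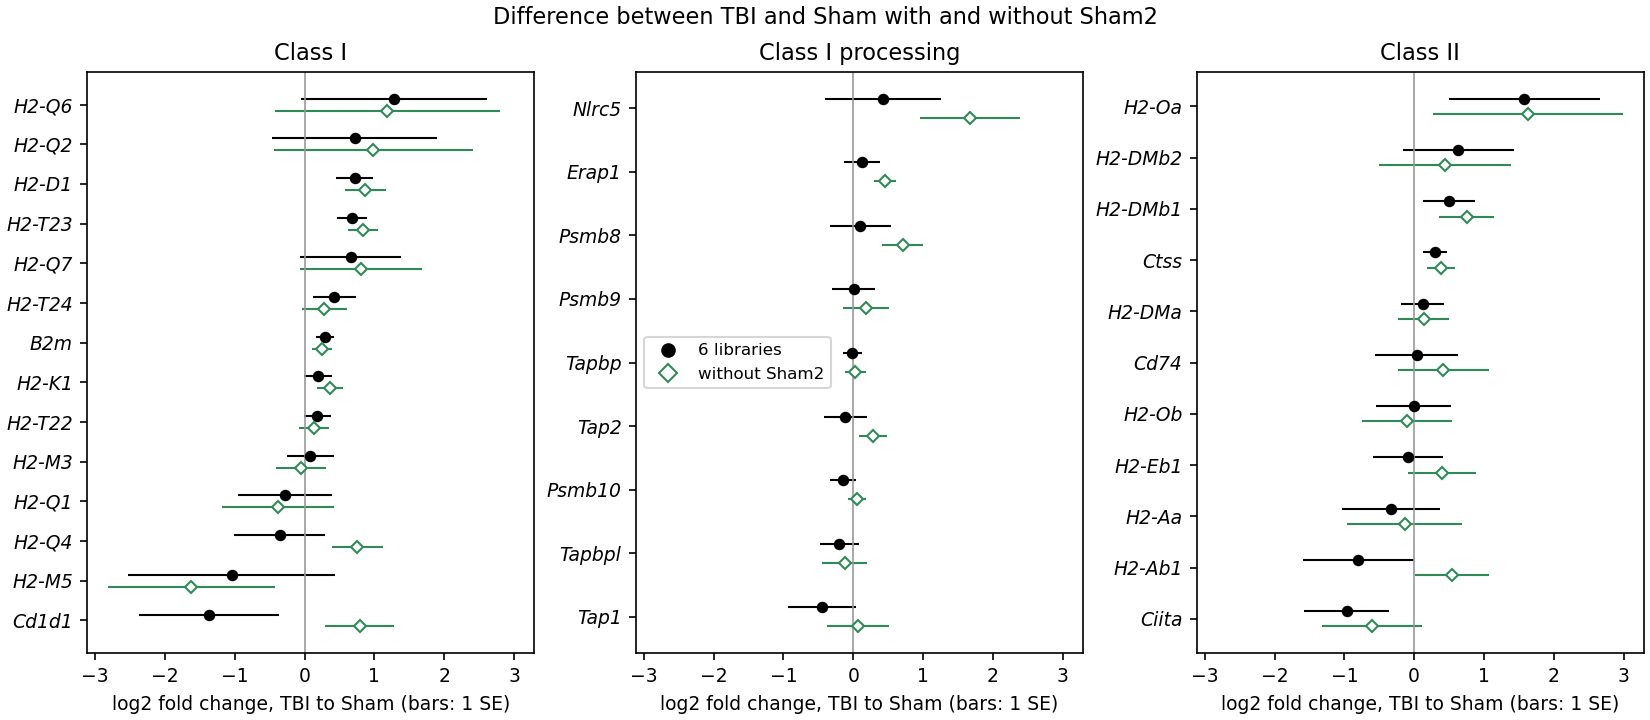
Log2 fold change of TBI to Sham with 1 standard error for the 34 tested MHC genes with a class, from all 6 libraries (black circles) and without Sham2 (open green diamonds). H2-D1 (0.72 and 0.87) and H2-T23 (0.68 and 0.84) differ little between the settings, while Cd1d1 (-1.37 and 0.79) and H2-Ab1 (-0.80 and 0.54) change sign.

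For the members not yet given without Sham2, the log2 fold change in that setting was 0.25 for B2m, -0.05 for H2-M3, 0.19 for Psmb9, 0.05 for Psmb10 and 0.03 for Tapbp. In class II it was 0.42 for Cd74, -0.13 for H2-Aa, 0.14 for H2-DMa and 0.38 for Ctss. Their values from all 6 libraries were 0.08 for H2-M3, 0.01 for Psmb9, -0.15 for Psmb10, -0.34 for H2-Aa and 0.12 for H2-DMa, so H2-M3, Psmb10 and Tapbp changed sign, and none of the 9 was called in either setting.

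By class, the median log2 fold change was 0.24 over 14 class I genes, -0.01 over 9 processing genes and 0.04 over 11 class II genes, against 0.01 over all genes tested. Without Sham2 these medians were 0.56, 0.19 and 0.39, against 0.03 over all genes, and without both Sham2 and TBI1 they were 0.54, 0.33 and 0.31. The count of members above 0 without Sham2 was 27 of 35, where 54.0% of all genes were above 0. Those with groups that did not overlap numbered 12 higher in TBI (10% of all genes) and 1 lower, H2-M5 (10.4%). The 12 were B2m, H2-D1, H2-K1, H2-T23 and Cd1d1 of class I, Erap1, Nlrc5, Psmb8 and Tap2 of processing, and Ctss, H2-DMb1 and H2-Oa of class II. At an unadjusted p under 0.05 there were 3 higher, Erap1, H2-D1 and H2-T23 (1.91% of all genes), and 0 lower (1.48%), and none was called. Sham2 was the highest library for 11 of the 35 members, and leaving out a high Sham library raises their fold changes by construction. The counts and medians without Sham2 are therefore no separate support for a rise in TBI.

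Leaving out both Sham2 and TBI1 left 2 libraries in each group, and 7 members then had an unadjusted p under 0.05 in the direction of TBI (2.58% of all genes) and 0 in the other (2.43%). These were B2m, H2-D1, H2-K1, H2-Q4, H2-T23, Nlrc5 and Psmb8, with log2 fold changes from 0.34 for B2m to 1.998 for Nlrc5, and 5 of the 7 were class I genes. Their adjusted p by edgeR was 0.853, so 0 were called. In this setting 20 members lay above Sham without overlap (18.6% of all genes) and 2, H2-DMa and H2-M5, below (18.5%). The pair of libraries was left out after their marker genes had been seen, and the limit given for leaving out Sham2 holds here too.

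The value of Sham2 was at least 1.5 times the mean of the other 5 libraries in 11 of the 35 members, against 12.4% of all genes. These were 4 of the 9 processing genes, 5 of the 11 class II genes and 2 of the 14 class I genes, with the largest ratios in Cd1d1 (7.99), H2-Ab1 (4.41) and H2-Q4 (3.17). B2m and H2-D1 lay below that mean in Sham2, at 0.824 and 0.898 times it. Within Sham, H2-D1 was nonetheless highest in Sham2 (58.6 CPM against 40.0 and 47.2 CPM), while B2m was lowest there. As a mean over genes of log2 CPM relative to the Sham mean, processing genes stood at 0.60 in Sham2 against -0.30 in Sham1 and -0.30 in Sham3. The 12 interferon response genes stood at 1.24, -0.73 and -0.52 in the same order and the 7 reactive astrocyte markers at 2.98, -1.81 and -1.17. The 5 monocyte markers summed to 97.8 CPM in Sham2 against 29.4 to 52.5 CPM elsewhere, with 3 of them highest in Sham2, and the 5 neutrophil markers to 15.8 CPM against 1.58 to 7.87 CPM. In sum the border and perivascular macrophage list was also highest in Sham2. The summed dendritic cell list was highest in TBI3, the B cell list in TBI2 and the T and NK cell list, through Cd4, in TBI1. As a mean over genes, the 5 dendritic cell markers tested were instead highest in Sham2, at 0.50 against 0.25 in TBI3. Interferon gamma itself, Ifng, was listed at 0 in all 6 libraries. The part of these genes in the processing gene values was not tested.

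**Figure D4:**
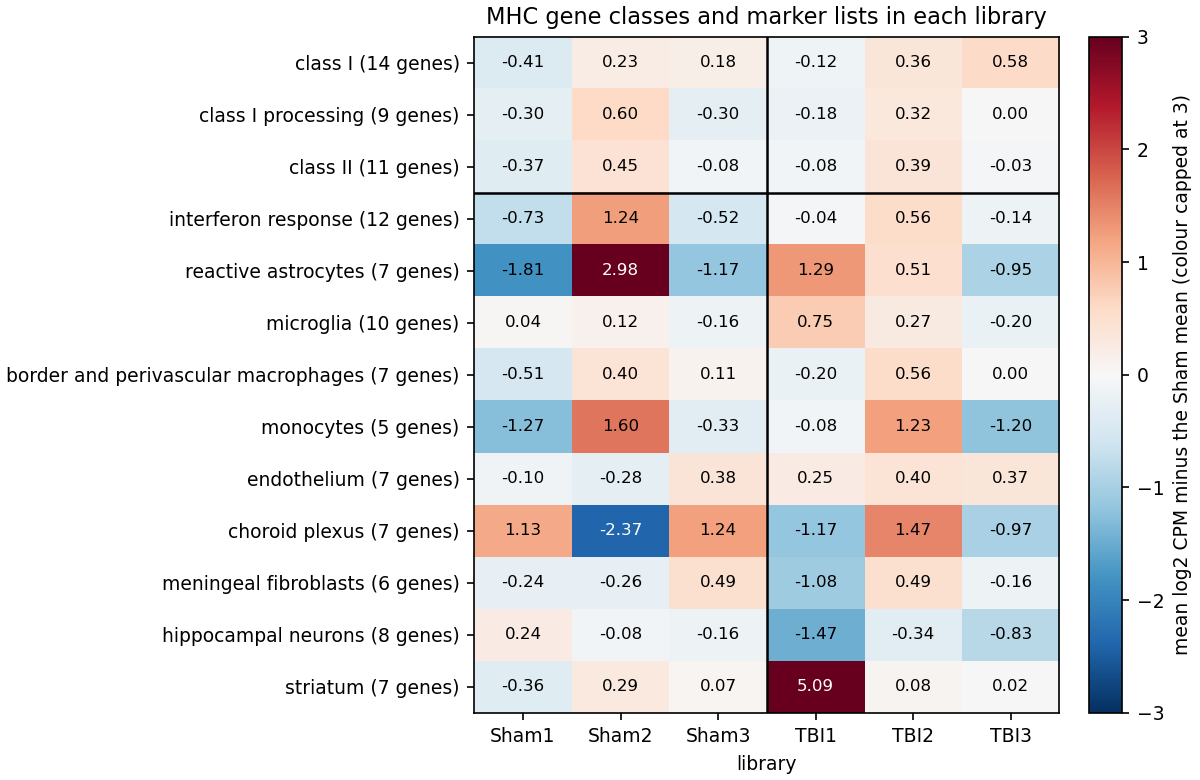
Mean over genes of log2 CPM minus the Sham mean for the 3 MHC classes (above the black line) and marker lists in each library, with the number of genes beside each name and colour capped at 3. Sham2 is high for processing genes (0.60), interferon response (1.24) and reactive astrocytes (2.98), and TBI1 for striatum (5.09) and microglia (0.75), while class I is highest in TBI3 (0.58).

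The wider pathway was read from a list of 55 genes, of which 52 were tested. At an unadjusted p under 0.05, 1 was higher (2.16% of all genes) and 1 lower (2.13%), 0 were called, and the median log2 fold change was 0.02. The groups did not overlap in 1 gene higher in TBI, Ctsh (4.77% of all genes), and in 5 lower, Nfyb, Psmb5, Tpp2, Ifngr2 and Jak1 (5.45%). Ctsh, a lysosomal aminopeptidase, was at 15.0, 12.6 and 16.0 CPM in Sham and 21.4, 22.5 and 17.0 CPM in TBI, without overlap, with a log2 fold change of 0.48 and a standard error of 0.18 (adjusted p = 0.982 by edgeR). Nfyb, a subunit of the factor NF-Y that binds the Y box, was at 60.2, 81.1 and 57.1 CPM in Sham and 51.7, 50.9 and 41.3 CPM in TBI, a log2 fold change of -0.46 with a standard error of 0.18 (adjusted p = 0.982 by edgeR). The class I chaperones Canx, Calr and Pdia3 had log2 fold changes of -0.02, 0.08 and -0.03. Among the transcription factors, Irf1 was at 13.2 CPM in Sham2 against 4.52 to 7.16 CPM elsewhere.

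H2-Ke6, an enzyme gene of steroid and fatty acid metabolism inside the complex, was at 25.3, 13.1 and 24.2 CPM in Sham and 20.9, 26.3 and 25.6 CPM in TBI. H2-Ke6 was lowest in Sham2, with a log2 fold change of 0.22 that was -0.03 without Sham2, and Gm20427 overlapped 86.4% of its exon bases on the same strand.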

How the data were processed

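Hippocampal RNA of 3 Sham and 3 TBI mice was sequenced, with 1 library per mouse and groups taken from the sample labels. The authors used FastQC for read quality, HISAT2 for alignment to GRCm38 and StringTie for quantification, and deposited unnormalized estimated counts, 1 whole number for each gene. Versions of FastQC, HISAT2 and StringTie, the annotation, strandedness and the step to counts are not given in the sources used here. Low values pile up at multiples of 4 (5109 values of 4 against 2325 of 3), so these units are not reads and no counting interval was computed. Totals were 31630936 to 41771872 per library, and 3 libraries per group limit the precision.

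Of 52550 identifiers, 52403 were matched to a GENCODE vM21 symbol. The test was edgeR 4.0.16 (quasi-likelihood, R 4.3.3) after filterByExpr and TMM scaling (factors 0.970 to 1.02), with Benjamini-Hochberg adjustment over 18795 genes. A standard error is the absolute log2 fold change divided by the root of F. The list values used a prior count of 2. Scripts were tested on simulated data. Levels per kb used merged exons. The alternatives were DESeq2 1.42.0 with and without its filters, RLE size factors, library totals, filters of 1 count in any and of 10 in every library, no fold threshold, a prior count of 0.5, each library left out and the replicate number as a block. The fit without Sham2 and TBI1 together was added after seeing the data.

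Per-library values are given for 21 members fixed by name and for members at p under 0.05 or without overlap, which added H2-Oa. H2-Q4 and H2-Ke6, and Irf1, Ifng, Prox1, Fibcd1, Tpp2, Cd3d, Cd8a and Nkg7 of the wider lists, were chosen after their values were seen. The members and lists were chosen with earlier results of these data known. Sequences came from RefSeq (GRCm38.p6 promoters) and GENCODE vM21 transcripts. The promoter table gave no match for Tapbpl, H2-Ab1, Cd74, Nlrc5, H2-T24, Tap2, H2-Q1, Cd1d1 and Ciita.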

Additional observations from a re-analysis of the deposited data

How the results depend on the processing

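Members called stayed at 0 in 15 of 15 alternatives, and members lower at an unadjusted p under 0.05 stayed at 0 in 14 of 14. Genes called over all genes were 46 with DESeq2's defaults and 50 with DESeq2 on the filtered genes, against 0 with edgeR, and ranged from 0 to 3 with libraries left out (1 without TBI1, 3 without Sham2 and TBI1). Members higher at an unadjusted p under 0.05 ranged from 0 (without Sham3) to 7 (without Sham2 and TBI1), with 1 without Sham1 or TBI2 and 4 without TBI1. The class I median ran from 0.14 to 0.56, the processing median from -0.14 to 0.33 and the class II median from -0.30 to 0.39 with libraries left out, the highest class II value being that without Sham2. The cause of these shifts was not tested. Several log2 fold changes changed sign, none of them called. Left-out libraries moved H2-M3 from -0.066 to 0.40, Cd1d1 from -1.85 to 0.79, Tap1 from -0.77 to 0.25, Tap2 from -0.31 to 0.36, Tapbp from -0.10 to 0.042, Psmb8 from -0.16 to 0.82, Psmb9 from -0.10 to 0.33, Psmb10 from -0.27 to 0.061, Nlrc5 from -0.10 to 1.998, Cd74 from -0.60 to 0.76, H2-Aa from -1.20 to 0.31, H2-Ab1 from -1.19 to 0.88, H2-Eb1 from -0.37 to 0.71, H2-DMa from -0.29 to 0.34 and Erap1 from -0.021 to 0.45. Psmb9 was -0.0039 with DESeq2's defaults. B2m, H2-D1, H2-K1, H2-T23, Ctss, Ciita and H2-Oa kept their direction in every alternative run, with H2-K1 between 0.038 and 0.48, H2-Oa between 0.997 and 2.45 and Ciita between -1.50 and -0.31.

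The replicate numbers are shared by the groups, and same-numbered libraries correlated at -0.0996, -0.0650 and 0.153 in their deviations from the group means. Pairs of unlike number ran from -0.182 to 0.210. With 3 libraries per group the deviations are tied to each other, so these values cannot settle whether the numbers mark a pairing. With the replicate number as a block, 0 genes and 0 members were called, 2 members were higher at an unadjusted p under 0.05, and Cd74 had a log2 fold change of -0.014.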
